A study of Homo sapiens with 9 samples.

Results

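AXL and MET are receptor tyrosine kinases, and the genes described here are these receptors, the AXL relatives MERTK and TYRO3, and the ligands GAS6, PROS1 and HGF. The members were found by their gene symbols: all 7 were present among the 60606 genes of the deposited table, and 6 of them passed the filter for testing (a mean over the 9 libraries of more than 1 TPM, transcripts of a gene per 1000000 transcripts), together with 22909 genes in all. The series holds RNA-seq of 3 human cell lines with 3 libraries each. U87 is a line grown from a human glioblastoma and was kept in medium with serum. GSCs are glioblastoma stem cells made from U87, grown in serum-free neural stem cell medium with EGF and bFGF and irradiated repeatedly until they were radioresistant. Diff cells are radioresistant cells that were differentiated from these GSCs in medium with serum and then selected from clonal communities. All 3 lines therefore share the U87 origin, and both radioresistant lines had been through irradiation, stem cell culture and selection. Against U87, these cannot be told apart. In GSCs the medium differs from that of U87 as well, whereas Diff cells were in serum as U87 was. GSCs and Diff cells share the irradiation history. Between them, medium, differentiation and the selection from clonal communities cannot be told apart. Each radioresistant line is 1 derivation of 1 tumour line. The labels do not say that the libraries came from separate cultures, so p-values measure only the spread between these libraries, which may be technical.

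AXL, MERTK and TYRO3 form the TAM family of receptors. Their ligands GAS6 and PROS1 (protein S, also an anticoagulant of the blood) are vitamin K-dependent proteins: their gamma-carboxylated end binds phosphatidylserine on membranes, while the other end binds the receptor. GAS6 is the ligand of AXL and also binds its relatives, whereas PROS1 is known as a ligand of TYRO3 and MERTK. HGF, hepatocyte growth factor, is the ligand of MET. It is secreted as an inactive single chain that serine proteases cleave, and U87 is known as a line that makes both HGF and MET. AXL and MET are both studied in glioblastoma for their part in invasion and resistance to therapy.

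The promoters of the members with the clearest differences between cell lines are shown first. GAS6 shares its promoter with a second transcript whose level is described below, and the HGF promoter differed in its letters from the others shown. Each runs 5′ to 3′ on the strand of the gene from 250 bases before the RefSeq start to 50 bases after it, 300 bases in GRCh38.p14, and all 7 members matched a RefSeq entry. Capitals mark matches, on either strand, to a GC box (GGGCGG), an AP-1 site (TGANTCA), a TEAD site (GGAATG) or the core of a hypoxia response element (ACGTG).
AXL, chr19:41218973-41219272, plus strand: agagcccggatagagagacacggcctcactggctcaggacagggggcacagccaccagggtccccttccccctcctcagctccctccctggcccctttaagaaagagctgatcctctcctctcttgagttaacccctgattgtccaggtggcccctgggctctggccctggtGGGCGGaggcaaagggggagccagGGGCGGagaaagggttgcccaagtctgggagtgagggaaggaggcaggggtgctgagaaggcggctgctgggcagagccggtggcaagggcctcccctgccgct
MET, chr7:116671946-116672245, plus strand: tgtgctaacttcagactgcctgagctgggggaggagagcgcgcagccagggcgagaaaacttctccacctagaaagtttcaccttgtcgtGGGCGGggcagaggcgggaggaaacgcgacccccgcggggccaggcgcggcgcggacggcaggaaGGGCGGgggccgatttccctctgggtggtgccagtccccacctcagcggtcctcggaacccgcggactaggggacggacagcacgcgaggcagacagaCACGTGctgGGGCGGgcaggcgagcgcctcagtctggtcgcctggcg
GAS6, chr13:113864027-113864326, minus strand: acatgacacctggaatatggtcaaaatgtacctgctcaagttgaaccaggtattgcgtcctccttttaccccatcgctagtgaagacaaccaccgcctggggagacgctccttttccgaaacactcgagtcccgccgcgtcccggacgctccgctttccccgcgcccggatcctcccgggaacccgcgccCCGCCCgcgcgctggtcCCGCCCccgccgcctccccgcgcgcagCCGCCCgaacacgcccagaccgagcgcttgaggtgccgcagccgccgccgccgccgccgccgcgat
PROS1, chr3:93973847-93974146, minus strand: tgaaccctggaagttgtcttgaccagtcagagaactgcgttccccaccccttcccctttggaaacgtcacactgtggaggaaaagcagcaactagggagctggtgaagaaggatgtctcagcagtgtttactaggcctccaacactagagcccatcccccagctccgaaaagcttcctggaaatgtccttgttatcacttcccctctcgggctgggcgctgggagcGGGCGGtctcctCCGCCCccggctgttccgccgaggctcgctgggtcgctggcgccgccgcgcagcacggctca
HGF, chr7:81769998-81770297, minus strand: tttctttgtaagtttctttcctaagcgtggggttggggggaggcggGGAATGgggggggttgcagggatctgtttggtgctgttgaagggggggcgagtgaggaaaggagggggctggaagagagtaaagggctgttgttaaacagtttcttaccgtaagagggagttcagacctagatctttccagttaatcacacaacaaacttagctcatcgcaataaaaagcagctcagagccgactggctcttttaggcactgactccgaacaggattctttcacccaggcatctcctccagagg
The AXL and PROS1 windows each held 2 GC boxes, the MET and GAS6 windows 3, and the HGF window none. A GC box was found in 45.0% of 35116 RefSeq promoters of this length. The GC content was 66.0% for AXL, 69.3% for MET, 69.0% for GAS6, 61.0% for PROS1 and 51.0% for HGF. The HGF window held 1 TEAD match, a motif in 14.0% of all promoters, and the MET window held the letters CACGTG, which read as the hypoxia core on both strands and overlap themselves (ACGTG was in 21.4% of promoters). None of these 5 windows held an AP-1 match, which was in 7.71% of promoters. A second RefSeq start of AXL lies downstream, at chr19:41226505-41226804, in a window with no GC box, 1 TEAD match and 2 hypoxia core matches. GAS6-DT, a divergent transcript, starts at position 113864168 of chromosome 13 in GENCODE 29, inside the GAS6 window. These are matches of letters and were not tested for binding.

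The deposited values are log2(TPM + 1). They were turned back into TPM, in which gene length is divided out so that levels of different genes can be compared within a library. TPM keeps no read depth, so counting error is unknown and the spread between the 3 libraries is the measure of precision. RN7SL1 and mitochondrial genes took between 35.7% and 39.2% of TPM in the libraries. Over the tested genes, a library deviated from the mean of its cell line by 0.15 to 0.22 on the log2 scale on average, with GSCs replicate 3 the highest of the 9. The 4 markers of glioma lines were present in all 3 lines at different levels. In U87, GSCs and Diff cells in turn, the mean of VIM was 1640, 1214 and 616 TPM, that of CD44 405, 427 and 296, that of NES 33.0, 22.6 and 13.5 and that of CHI3L1 107, 557 and 1809. Of the stem cell markers, SOX2 was at 0.0383 ± 0.066 TPM in U87, 0.879 ± 0.10 in GSCs and 0.153 ± 0.039 in Diff cells, and PROM1 (CD133) was also below 1 TPM in every line (means, SD, n = 3). FABP7 was higher in GSCs than in U87 (log2 fold change 1.77, limma adjusted p = 2.7e-05). OLIG2, the most abundant of the 4 stem cell markers, had means of 7.27, 8.75 and 5.37 TPM in U87, GSCs and Diff cells. Its difference between GSCs and U87 did not pass (0.23, limma adjusted p = 0.22), and the libraries of these lines overlapped. From GSCs to Diff cells OLIG2 fell by 0.61 (limma adjusted p = 0.012). The astrocyte marker GFAP was lower in both radioresistant lines than in U87, at 0.809 ± 0.13 TPM in GSCs and 0.909 ± 0.14 in Diff cells against 2.29 ± 0.28. The other 3 astrocyte markers had means below 1 TPM in every line and were not tested, with S100B at 0.101, 0.134 and 0.617 TPM and ALDH1L1 at 0.011, 0.274 and 0.256 TPM in U87, GSCs and Diff cells.

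AXL was the most abundant member in all 3 cell lines and was highest in U87. Its level was 435, 410 and 426 TPM in the U87 libraries, 251, 256 and 221 TPM in the GSCs libraries and 317, 324 and 332 TPM in the Diff cells libraries. The 3 lines did not overlap, and Diff cells lay between GSCs and U87. The mean was 424 ± 12.8 TPM in U87, 243 ± 18.9 in GSCs and 324 ± 7.30 in Diff cells (SD, n = 3), which is 1.74-fold higher in U87 than in GSCs and 1.31-fold higher in U87 than in Diff cells. On the log2(TPM + 1) scale AXL fell by 0.80 ± 0.06 (SE) in GSCs against U87 (limma adjusted p = 1.0e-05) and by 0.38 ± 0.06 in Diff cells against U87 (adjusted p = 0.0012), and it was 0.42 ± 0.06 higher in Diff cells than in GSCs (adjusted p = 0.0011). AXL lies on chromosome 19, at 41219203 to 41261766 on the plus strand (GENCODE 29, GRCh38). An antisense gene, ENSG00000269652, overlaps 1.30% of its exonic bases, and its own log2 fold changes did not pass the test (0.03 in GSCs against U87, adjusted p = 0.96).

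Of the marker lists of other cell types, 2 had summed levels in the order of AXL without overlap between lines, each through 1 gene. The 4 astrocyte markers summed to 2.08 to 2.68 TPM in U87, 1.57 to 2.15 in Diff cells and 1.18 to 1.25 in GSCs. For these sums, U87 and Diff cells overlapped. The summed level of the 5 pericyte and fibroblast markers was 509 to 605 TPM in U87, 195 to 199 in Diff cells and 42.3 to 49.5 in GSCs. COL1A1 carried this order, with means of 497 TPM in U87, 157 in Diff cells and 27.7 in GSCs. The other 4 genes of the list did not follow it: PDGFRB was at 56.6 TPM in U87 and 12.1 and 11.7 TPM in GSCs and Diff cells, RGS5 passed in no comparison, DCN was below 1 TPM in every line and LUM was highest in Diff cells (24.3 TPM against 1.36 in U87 and 0.841 in GSCs). The 6 microglia and macrophage markers summed to 13.5 to 16.9, 9.71 to 11.9 and 5.66 to 6.30 TPM in the same order of lines. Of these 6, PTPRC, AIF1, ITGAM, CD163 and CD14 each had a mean below 1 TPM in every line, so that the sum was nearly all CSF1R, itself a receptor tyrosine kinase. The part of these genes in the AXL difference was not tested. In bulk RNA, fewer cells with a transcript and less of it per cell cannot be told apart.

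**Figure D1:**
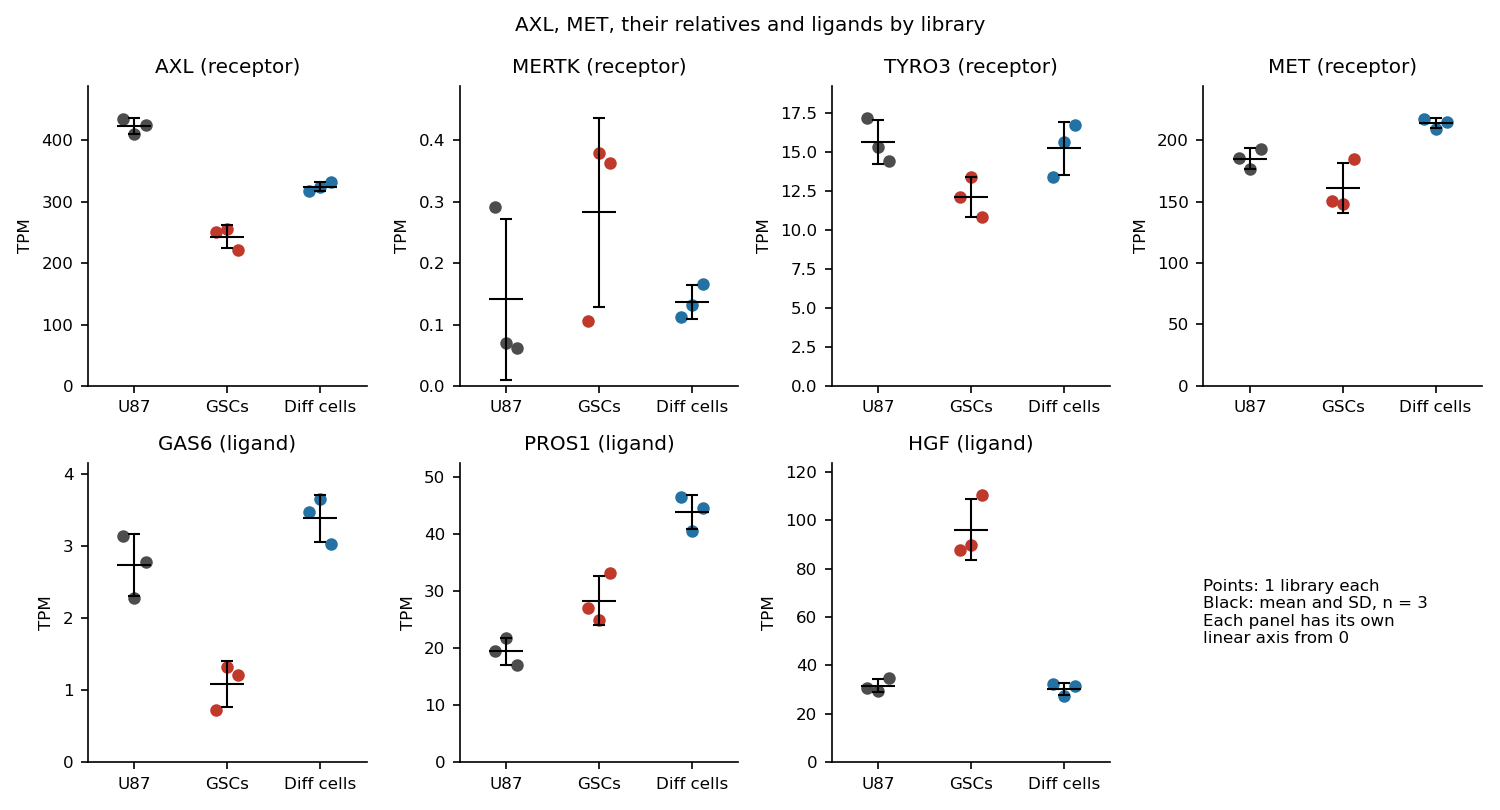
Level of each member in TPM (vertical axes, linear, from 0, with a scale of their own per gene) in the 3 libraries of U87, GSCs and Diff cells; points are libraries and black lines the mean and SD, n = 3. AXL descends from U87 over Diff cells to GSCs, whereas HGF stands at 87.8 to 110.5 TPM in GSCs and at 27.5 to 34.9 TPM in the other libraries.

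TYRO3, the TAM receptor expressed mainly in the nervous system, was far below AXL and differed little between lines. It was at 17.1, 15.3 and 14.4 TPM in U87, 12.1, 13.4 and 10.8 TPM in GSCs and 13.4, 15.6 and 16.7 TPM in Diff cells. The U87 and Diff cells libraries overlapped, and the GSCs libraries lay just below both. TYRO3 fell by 0.34 ± 0.11 in GSCs against U87 (limma adjusted p = 0.031). This call was lost without GSCs replicate 1 (adjusted p = 0.069), GSCs replicate 3 (0.080), U87 replicate 1 (0.11) or U87 replicate 2 (0.062). The difference of Diff cells from GSCs was 0.31 ± 0.11 (adjusted p = 0.061), and that of Diff cells from U87 was -0.04 ± 0.11 (adjusted p = 0.83). The pseudogene TYRO3P, on chromosome 15 like TYRO3, had means of 3.14 ± 0.30, 2.73 ± 0.73 and 3.33 ± 0.99 TPM in U87, GSCs and Diff cells, and reads shared between the copies could have been split, so small differences of TYRO3 are uncertain.

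MERTK, the TAM receptor known from macrophages that clear dying cells, was close to absent. It was listed at 0.29, 0.07 and 0.06 TPM in U87, 0.11, 0.38 and 0.36 TPM in GSCs and 0.11, 0.13 and 0.17 TPM in Diff cells, and all lines overlapped. With these levels MERTK did not enter the test, and when no filter was applied none of its 3 comparisons passed (lowest limma adjusted p = 0.31). AXL therefore made up nearly all transcripts of the TAM receptors. Its share of the summed TPM of AXL, MERTK and TYRO3 was 96.4% ± 0.29 in U87, 95.2% ± 0.23 in GSCs and 95.5% ± 0.39 in Diff cells (SD, n = 3). The U87 libraries lay above those of both other lines, by 1.26 percentage points over GSCs and 0.93 over Diff cells, each with p = 0.1 in a two-sided exact permutation test, the smallest p that 3 libraries against 3 allow. Adjusted over 9 such tests of 3 ratios, that p becomes 0.13.

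MET differed less between lines than AXL did, and it was highest in Diff cells. Its level was 186, 176 and 193 TPM in U87, 151, 148 and 185 TPM in GSCs and 217, 209 and 215 TPM in Diff cells. The Diff cells libraries were above all others, and GSCs replicate 3 fell within the range of U87. MET rose by 0.42 ± 0.08 in Diff cells against GSCs (limma adjusted p = 0.0051), or 1.33-fold in mean TPM. Its differences from U87 did not pass the test, at 0.21 ± 0.08 in Diff cells (adjusted p = 0.078) and -0.21 ± 0.08 in GSCs (adjusted p = 0.071). Both did pass without GSCs replicate 3, at 0.21 for Diff cells (adjusted p = 0.0044) and -0.31 for GSCs (adjusted p = 0.0010), and the value for Diff cells passed under 3 further ways of scaling the libraries (adjusted p between 0.017 and 0.044). MET lies at 116672390 to 116798386 on the plus strand of chromosome 7, and no other annotated gene overlaps it.

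The balance of MET to AXL transcripts was lower in U87 than in either radioresistant line. MET reached 42.7%, 43.0% and 45.3% of AXL TPM in the U87 libraries, 60.0%, 57.7% and 83.4% in GSCs and 68.5%, 64.6% and 64.8% in Diff cells. GSCs and Diff cells overlapped, while U87 stood apart from both. The log2 ratio was -1.20 ± 0.05 in U87, -0.60 ± 0.29 in GSCs and -0.60 ± 0.05 in Diff cells (SD, n = 3). It was 0.60 higher in GSCs and in Diff cells than in U87 (p = 0.1 each, two-sided exact permutation test, the smallest possible; adjusted p = 0.13), and the difference of Diff cells from GSCs was -0.003 (exact p = 1.0).

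Among 58 human receptor tyrosine kinases in the table, AXL and MET ranked 1 and 2 by mean TPM in each of the 3 lines. Next in rank was DDR2, a collagen receptor, in U87 (130 ± 5.10 TPM), and EGFR, the epidermal growth factor receptor, in GSCs (134 ± 1.53) and Diff cells (98.7 ± 1.53). The lowest MET library of GSCs, at 148 TPM, was above the highest EGFR library there, at 135 TPM. AXL and MET together took 51.4% ± 0.40 of the summed TPM of these kinases in U87, 42.5% ± 0.43 in GSCs and 50.9% ± 0.42 in Diff cells (SD, n = 3), and GSCs did not overlap the other lines. TYRO3 ranked 12 in U87 and Diff cells and 16 in GSCs, and MERTK ranked between 33 and 37. Of the 31 kinases tested, the members included, 25 (80.6%) passed at an adjusted p under 0.05 in GSCs against U87, where 48.6% of all tested genes passed. In Diff cells against U87 22 passed (71.0%, beside 39.4% of all tested genes) and between Diff cells and GSCs 17 (54.8%, beside 34.8%). Beyond a log2 fold change of 1, the kinases that moved most in GSCs against U87 were EPHA7 (2.51), PDGFRB (-2.14), ROS1 (-2.10), EPHA2 (-1.65) and EPHA5 (1.54), all larger differences than those of AXL or MET.

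**Figure D2:**
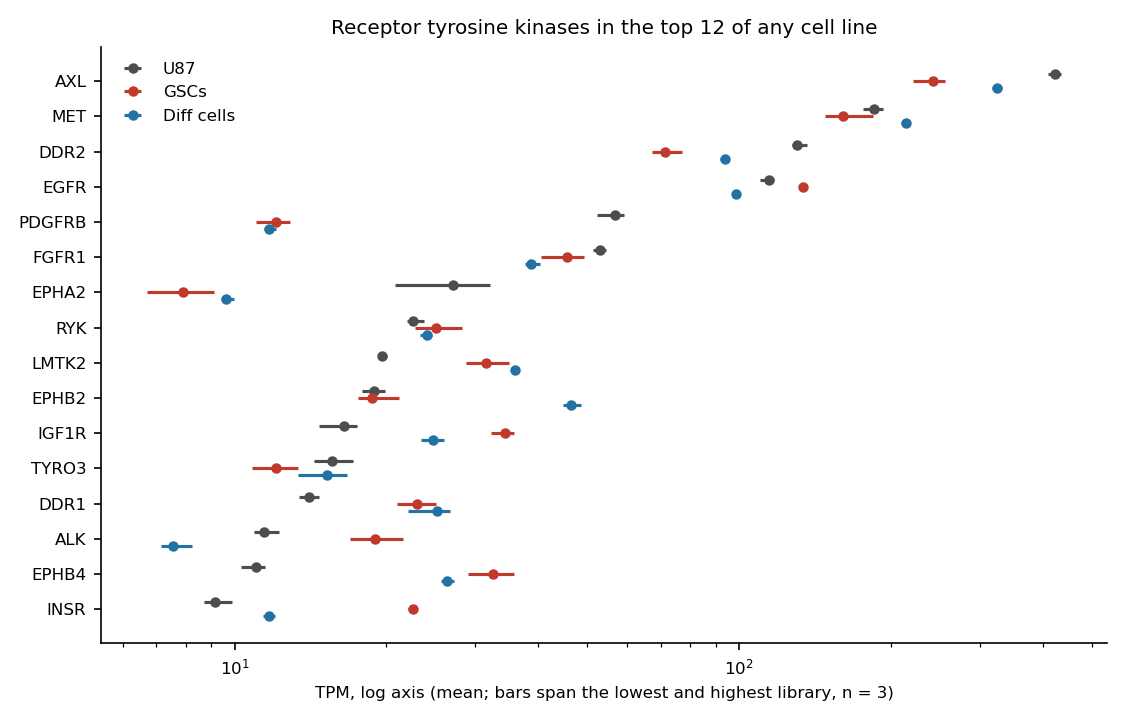
Mean TPM (horizontal log axis) of the receptor tyrosine kinases that ranked in the top 12 of any cell line, in U87, GSCs and Diff cells; bars span the lowest and highest of 3 libraries. AXL and MET lead in each line, followed by DDR2 in U87 and EGFR in GSCs and Diff cells.

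GAS6 was scarce in all lines and lowest in GSCs. It was at 3.14, 2.28 and 2.78 TPM in U87, 0.72, 1.33 and 1.22 TPM in GSCs and 3.48, 3.66 and 3.03 TPM in Diff cells. Every GSCs library was below every other library, and U87 and Diff cells overlapped. GAS6 fell by 0.84 ± 0.16 in GSCs against U87 (limma adjusted p = 0.0026) and was 1.08 ± 0.16 higher in Diff cells than in GSCs (adjusted p = 0.0012), a 3.11-fold difference of mean TPM; the log2 value understates the change of so low a gene because 1 is added to TPM. The difference of Diff cells from U87 was 0.24 ± 0.16 (adjusted p = 0.29). Without GSCs replicate 1 the difference of Diff cells from GSCs was 0.95, still called but below a log2 fold change of 1.

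GAS6 lies on chromosome 13, at 113820549 to 113864067 on the minus strand, and its antisense gene GAS6-AS1 had more transcripts than GAS6 itself. GAS6-AS1 was at 13.0, 14.9 and 15.6 TPM in U87, 9.22, 9.92 and 7.69 TPM in GSCs and 29.2, 22.4 and 23.1 TPM in Diff cells. All 3 lines were separate, with Diff cells highest, and in every library GAS6-AS1 was 4.15 to 12.7 times the level of GAS6. The log2 fold changes of GAS6-AS1 were -0.65 in GSCs against U87 (limma adjusted p = 0.0029), 0.73 in Diff cells against U87 (0.0019) and 1.38 between Diff cells and GSCs, with Diff cells higher (8.3e-05). Its exons share 421 bases with those of GAS6, 7.01% of the exonic bases of GAS6 and 5.87% of its own. The library kit keeps strand, but the strand setting of the read counting is not given in the sources used here, so reads from the shared bases may not have been told apart. GAS6-DT, which starts in the promoter window printed above, was at 1.68 ± 0.23 TPM in U87, 0.56 ± 0.38 in GSCs and 2.05 ± 0.37 in Diff cells, and like GAS6 it fell in GSCs against U87 (-0.80, adjusted p = 0.0091) and was higher in Diff cells than in GSCs (0.99, adjusted p = 0.0051).

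PROS1 was the more abundant TAM ligand and rose in both radioresistant lines. Its level was 19.4, 21.8 and 17.1 TPM in U87, 26.9, 24.9 and 33.2 TPM in GSCs and 46.4, 40.5 and 44.6 TPM in Diff cells. The lines did not overlap, and their order, with U87 lowest and Diff cells highest, was not that of AXL. PROS1 was 1.14 ± 0.12 higher in Diff cells than in U87 (limma adjusted p = 1.0e-04), 0.52 ± 0.12 higher in GSCs than in U87 (adjusted p = 0.0070) and 0.62 ± 0.12 higher in Diff cells than in GSCs (adjusted p = 0.0044). In mean TPM, Diff cells had 2.25 times the level of U87. PROS1 lies on chromosome 3, at 93873033 to 93980003 on the minus strand, and its pseudogene PROS2P was listed at 0 in all 9 libraries. The summed level of 4 neuron markers was also highest in Diff cells, at 27.0 to 28.1 TPM against 10.8 to 14.5 in U87 and 13.5 to 14.0 in GSCs. MAP2 carried it (21.7 TPM in Diff cells and 7.95 in U87, log2 fold change 1.35, limma adjusted p = 2.0e-05), with RBFOX3 and SYP below 1 TPM in every line. TUBB3 was at 3.74, 4.66 and 5.22 TPM in U87, GSCs and Diff cells and passed in no comparison. The part of these genes in the PROS1 and MET differences was not tested.

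GAS6 formed a small share of the TAM ligand transcripts, and the share differed between lines. It was 13.9%, 9.47% and 14.0% of the summed TPM of GAS6 and PROS1 in U87, 2.62%, 5.06% and 3.54% in GSCs and 6.97%, 8.29% and 6.36% in Diff cells. The 3 lines were separate, with U87 highest and GSCs lowest. The share was 8.70 percentage points lower in GSCs than in U87, and in Diff cells it was 5.24 below U87 and 3.46 above GSCs (p = 0.1 for each, two-sided exact permutation test, the smallest possible; adjusted p = 0.13). Together GAS6 and PROS1 reached 4.67% to 5.87% of AXL TPM in U87, 10.2% to 15.5% in GSCs and 13.6% to 15.7% in Diff cells.

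HGF had the largest log2(TPM + 1) fold change of the 6 tested members, and only GSCs stood apart. By the ratio of mean TPM its difference between GSCs and Diff cells (3.16-fold) was close to that of GAS6 (3.11-fold), and in TPM the largest difference was that of AXL, which fell by 181 TPM in GSCs against U87, while HGF fell by 65.6 TPM in Diff cells against GSCs. It was at 30.9, 29.4 and 34.9 TPM in U87, 87.8, 89.8 and 110.5 TPM in GSCs and 32.2, 27.5 and 31.4 TPM in Diff cells. U87 and Diff cells overlapped, and every GSCs library was far above both. HGF rose by 1.56 ± 0.11 in GSCs against U87 (limma adjusted p = 4.9e-06), or 3.03-fold in mean TPM, and fell by 1.62 ± 0.11 in Diff cells against GSCs (adjusted p = 1.2e-05). Its difference between Diff cells and U87 was -0.06 ± 0.11 (adjusted p = 0.70). HGF lies at 81699008 to 81770438 on the minus strand of chromosome 7 and overlaps no other annotated gene. The summed level of 4 endothelial markers was also highest in GSCs, at 17.1 to 19.4 TPM against 3.21 to 5.23 in U87 and 4.81 to 6.47 in Diff cells. VWF (0.527, 11.4 and 1.74 TPM in U87, GSCs and Diff cells) and PECAM1 (2.77, 6.25 and 2.92) carried it. CDH5 and CLDN5 were below 1 TPM in every line, and CLDN5 was lowest in GSCs. The 4 stem cell markers summed to 13.7 to 16.5 TPM in GSCs, 7.61 to 8.99 in U87 and 8.09 to 8.94 in Diff cells. The part of these genes in the HGF difference was not tested.

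HGF and MET transcripts came closest to each other in GSCs. HGF was 16.6%, 16.7% and 18.1% of MET TPM in U87, 58.3%, 60.7% and 59.9% in GSCs and 14.8%, 13.2% and 14.6% in Diff cells. This ratio was chosen after the values of both genes had been seen and was given no test.

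Counted together, 2 of the 6 tested members passed at an adjusted p under 0.05 in Diff cells against U87 (PROS1 higher, AXL lower), where 39.4% of all tested genes passed. In GSCs against U87, 5 of 6 passed (HGF and PROS1 higher, AXL, TYRO3 and GAS6 lower), beside 48.6% of all tested genes. In Diff cells against GSCs, 5 of 6 passed (AXL, MET, GAS6 and PROS1 higher, HGF lower), beside 34.8%. With the further condition of an absolute log2 fold change over 1, PROS1 remained in Diff cells against U87 (12.3% of all tested genes), HGF in GSCs against U87 (17.1%) and GAS6 and HGF in Diff cells against GSCs (8.01%). The comparisons share their libraries in pairs and are not independent of each other.

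Within a cell line the members kept nearly the same order. It ran AXL, MET, HGF, PROS1, TYRO3, GAS6 and MERTK in U87 and in GSCs, and in Diff cells PROS1 came before HGF. Neighbours in this order did not overlap between libraries, except PROS1 and TYRO3 in U87, where the lowest PROS1 library and the highest TYRO3 library were both at 17.1 TPM.

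Most of the tested genes around HGF and MET on chromosome 7 had a higher level in both radioresistant lines than in U87, and neither member followed them throughout. Of the 20 tested genes nearest to HGF (10 on either side, from 79030240 to 87399795), 20 had a log2 fold change above 0 in Diff cells against U87, with a median of 0.82, and 19 in GSCs against U87, with a median of 0.99. HGF at -0.06 lay below all 20 in Diff cells, and at 1.56 above 18 of them in GSCs. Around MET (114086327 to 118004045), 15 of 20 genes were above 0 in either comparison, with medians of 0.37 and 0.51. MET at -0.21 in GSCs against U87 had 5 of the 20 below it. With only 5 genes on either side of MET, GSCs had a neighbour median of 0.22 and Diff cells one of -0.051, which means that the surroundings of MET depended on the window, whereas those of HGF stayed at 0.66 in Diff cells. The tested genes next to HGF on either side both rose against U87: the pseudogene DDX43P3 by 1.24 in GSCs (limma adjusted p = 0.0050) and 1.11 in Diff cells (0.011), and CACNA2D1, a calcium channel subunit, by 1.08 in GSCs (1.6e-05) and 0.75 in Diff cells (0.00022). Those next to MET went opposite ways: ENSG00000235427 fell by 1.19 in GSCs (limma adjusted p = 0.00016) and by 0.62 in Diff cells (0.0084), whereas CAPZA2, an actin capping protein, rose by 0.51 in Diff cells (0.013) and had 0.32 in GSCs (0.065).

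The same held along the chromosome. Of 1058 tested genes on chromosome 7, 79.6% had a log2 fold change above 0 in Diff cells against U87, with a median of 0.41, and 79.3% in GSCs against U87, with a median of 0.49. On the chromosomes of the other members (2, 3, 13, 15 and 19) the medians of these comparisons lay between -0.08 and 0.05. The chromosome count was added after the values around HGF and MET had been seen, and copy number was not measured. The other members varied in how they stood to their surroundings. AXL at -0.80 in GSCs against U87 had 1 of its 20 neighbours below it (neighbour median 0.07) and at -0.38 in Diff cells 5 of 20, and PROS1 at 1.14 in Diff cells against U87 had 19 of 20 below it (neighbour median -0.16, or 0.026 with 5 genes on either side). TYRO3 at -0.04 in Diff cells against U87 lay among its neighbours, with 8 of 20 below it (neighbour median 0.013). GAS6 had 4 of 20 below it in GSCs against U87, and the tested genes next to it, GAS6-AS1 and GAS6-DT, fell there as GAS6 did.

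**Figure D3:**
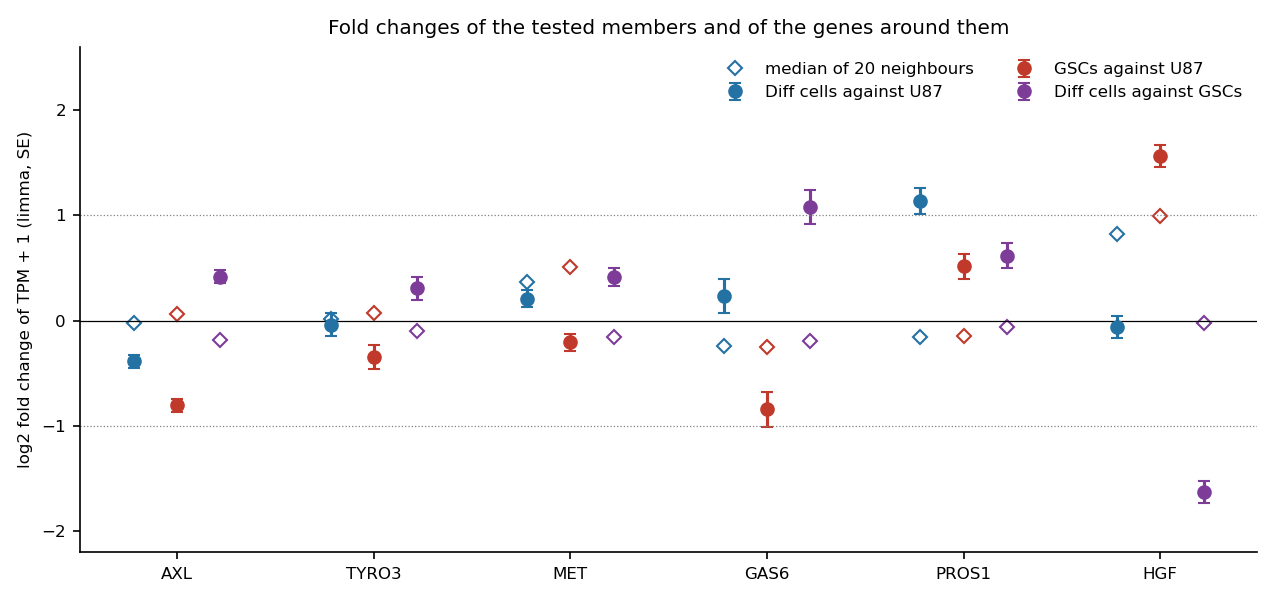
Log2 fold change of TPM + 1 (vertical axis, filled circles with SE from limma) of the 6 tested members in the 3 comparisons, and the median log2 fold change of the 20 tested genes nearest to each (open diamonds of the same colour). HGF at -0.06 lies under the 0.82 of its neighbours in Diff cells against U87, and AXL and MET lie below the medians of their neighbours in GSCs against U87.

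The genes that act with these receptors were taken from 8 lists of 71 genes, of which 59 were tested. In Diff cells against U87, 16 passed as higher and 19 as lower (59.3% of those tested), in GSCs against U87 24 and 19 (72.9%), and in Diff cells against GSCs 10 and 16 (44.1%), beside 39.4%, 48.6% and 34.8% of all tested genes. With a log2 fold change over 1 as well, 6, 11 and 4 genes remained (10.2%, 18.6% and 6.78%), against the 12.3%, 17.1% and 8.01% of all tested genes. The median log2 fold change over the 59 genes was -0.03, 0.07 and -0.09, beside -0.04, 0.02 and -0.06 over all tested genes.

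Of 8 genes for the activation of HGF and its inhibitors, the urokinase gene PLAU was the only one with enough transcripts to be tested. PLAU was at 66.7 ± 15 TPM in U87, 117 ± 10 in GSCs and 133 ± 9.1 in Diff cells, and it rose in both radioresistant lines against U87 (0.83, limma adjusted p = 0.0014, and 1.00, adjusted p = 0.00062). The other 7 were below the filter: the activator gene HGFAC reached at most 0.172 TPM on average, ST14 (matriptase) reached 1.51 ± 0.20 TPM in GSCs only, and the inhibitor genes SPINT1 and SPINT2 at most 0.128 and 0.273 TPM.

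Of 7 genes for the MET paralogue, its ligand and MET partners, 4 were tested. The paralogue MST1R (RON) was near 0, with means of 0.125 TPM in U87, 0.0276 in GSCs and 0.0147 in Diff cells, while its ligand gene MST1 rose by 1.13 in GSCs against U87 (limma adjusted p = 6.1e-05). NRP1, a neuropilin coreceptor, fell in both radioresistant lines, from 268 ± 2.7 TPM to 75.0 ± 8.4 in GSCs and 80.6 ± 4.1 in Diff cells (-1.83 and -1.72). ITGB4, an integrin subunit that can associate with MET, rose by 1.46 in GSCs and 0.67 in Diff cells against U87. CD44, of which variants serve as MET coreceptors, was lowest in Diff cells. It fell there by 0.53 against GSCs (limma adjusted p = 0.00051) and by 0.45 against U87 (0.00081). Between GSCs and U87 CD44 did not pass (0.07, adjusted p = 0.41).

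All 3 genes for the gamma-carboxylation of GAS6 and PROS1 were expressed. GGCX, the carboxylase, had its lowest level in Diff cells (-0.26 against U87, limma adjusted p = 0.030, and -0.41 against GSCs, adjusted p = 0.0039). VKORC1L1, which recycles vitamin K, rose by 0.69 in GSCs and 0.76 in Diff cells against U87, whereas its relative VKORC1 fell by 0.92 in Diff cells (adjusted p = 0.0036).

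All 9 genes for the shedding of the receptors and for gamma-secretase were tested, and none passed with a log2 fold change over 1. Of all tested genes, 17.1% in GSCs and 12.3% in Diff cells did so against U87, and 8.01% between these lines. With only 9 genes, this does not set the list apart. By adjusted p alone, 5 passed in GSCs against U87 (55.6%, beside 48.6% of all tested genes). In Diff cells, 3 passed against U87 (33.3%, beside 39.4%) and 3 against GSCs (33.3%, beside 34.8%). ADAM10 and ADAM17, the sheddases of AXL and MET, were at 27.1 ± 0.89 and 10.6 ± 0.73 TPM in U87. ADAM17 rose by 0.28 in GSCs against U87 (limma adjusted p = 0.027) and ADAM10 passed in no comparison. The largest changes were in the gamma-secretase subunit genes APH1B and APH1A. APH1B rose by 0.53 in GSCs against U87 and fell by 0.57 in Diff cells against GSCs (limma adjusted p = 0.0014). APH1A rose by 0.57 in Diff cells against U87.

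Among the 17 adaptors and proximal effectors, 12 passed in GSCs against U87 (7 higher, 5 lower), 8 in Diff cells against U87 (4 and 4) and 7 between Diff cells and GSCs (3 higher and 4 lower in Diff cells). These are 70.6%, 47.1% and 41.2% of the list, beside 48.6%, 39.4% and 34.8% of all tested genes. GAB1, the main docking protein of MET, was at 9.31 ± 0.19 TPM in U87, 18.0 ± 1.9 in GSCs and 9.11 ± 0.63 in Diff cells, so that like HGF it was high in GSCs alone (0.88 against U87, limma adjusted p = 7.2e-05, and -0.91 in Diff cells against GSCs, adjusted p = 0.00015). The adaptor NCK2 fell by 1.00 in GSCs against U87. SRC, a kinase downstream of both receptors, did not pass in any comparison, with means of 32.3, 32.8 and 33.5 TPM.

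The attenuators held the largest changes of all 8 lists: all 9 were tested and all 9 passed in GSCs against U87, 4 higher and 5 lower, where 48.6% of all tested genes passed. PTPRJ, a receptor phosphatase known to act on MET, was at 23.6 ± 1.2 TPM in U87, 0.364 ± 0.074 in GSCs and 15.7 ± 0.37 in Diff cells (-4.17 in GSCs against U87, limma adjusted p = 1.1e-08). LRIG1, a membrane protein that lowers receptor levels, was at 22.4 ± 1.7, 18.1 ± 2.5 and 3.76 ± 0.081 TPM, so that Diff cells were the low line (-2.29 against U87, limma adjusted p = 9.2e-07, and adjusted p = 4.6e-06 against GSCs). SOCS1, an inhibitor of cytokine signalling, fell in both (-2.13 and -2.48 against U87). The ubiquitin ligase genes CBL and CBLB were higher in GSCs than in U87, by 0.82 and 1.46.

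Of 7 other TAM ligands and phagocytic partners, 5 were tested. Against U87, 2 passed in Diff cells (40.0%, beside 39.4% of all tested genes) and 3 in GSCs (60.0%, beside 48.6%). Between Diff cells and GSCs, 3 passed (60.0%, beside 34.8%). LGALS3 and TUB, the tested genes listed as other TAM ligands, passed in no comparison (lowest limma adjusted p = 0.50 and 0.64). The genes that passed belong to the MFGE8 and integrin part of the list. MFGE8, which like GAS6 bridges phosphatidylserine to a receptor, rose in GSCs (1.26) and Diff cells (1.55) against U87, and so did the integrin gene ITGB5 (1.02 and 1.36). ITGAV, whose protein pairs with ITGB5 to bind MFGE8, was at 22.1 ± 0.70 TPM in U87, 8.87 ± 0.63 in GSCs and 25.6 ± 1.3 in Diff cells, with -1.23 in GSCs against U87 (limma adjusted p = 2.0e-06) and 1.43 in Diff cells against GSCs (adjusted p = 3.2e-06).

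All 11 transcription factors reported at the AXL or MET gene were tested. In GSCs against U87, 9 passed (3 higher and 6 lower, 81.8% beside 48.6% of all tested genes), in Diff cells against U87 7 (63.6% beside 39.4%) and between Diff cells and GSCs 3 (27.3% beside 34.8%). The AP-1 genes FOSL1 and JUN fell in both radioresistant lines against U87, FOSL1 by 0.57 and 0.44 and JUN by 0.36 and 0.53. Against U87, YAP1 rose by 0.80 in GSCs (limma adjusted p = 1.0e-05) and by 0.22 in Diff cells (0.022). Its partner TEAD1 fell by 0.27 in GSCs (0.011) and by 0.37 in Diff cells (0.0032). SP1, which binds GC boxes, did not pass in any comparison, at 94.5, 91.4 and 85.5 TPM. The other SP gene of the list, SP3, fell against U87 by 0.64 in GSCs (limma adjusted p = 0.00061) and by 0.57 in Diff cells (0.0016). MITF was at 4.11 ± 0.48 TPM in U87, 0.509 ± 0.033 in GSCs and 6.01 ± 0.40 in Diff cells, the largest change of this list (-1.76 from U87 to GSCs and 2.21 from GSCs to Diff cells).

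**Figure D4:**
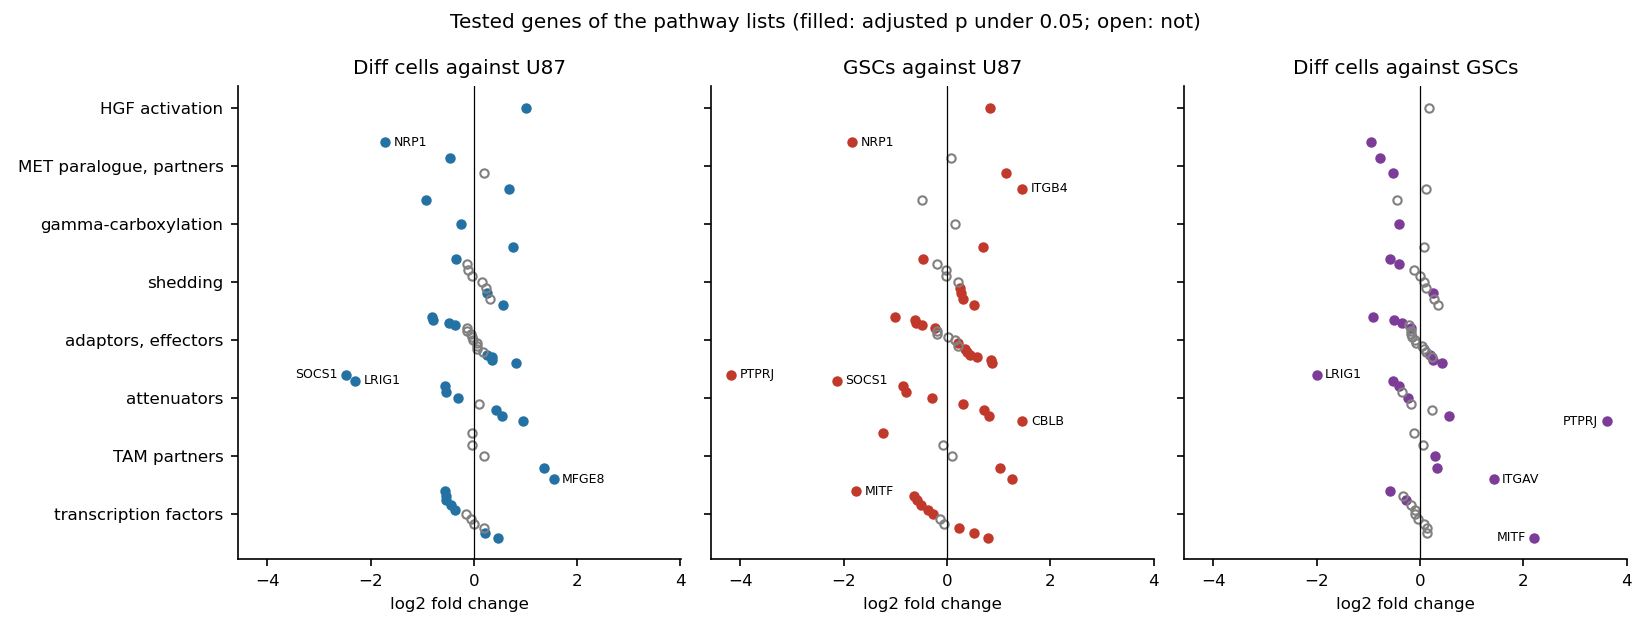
Log2 fold change (horizontal axis) of the 59 tested genes of the 8 lists in the 3 comparisons; each point is a gene, filled where limma's adjusted p was under 0.05, and genes beyond 1.4 are named. Most genes lie within 1 of 0, and the attenuators PTPRJ, LRIG1 and SOCS1 reach farthest.

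The members varied in how closely they followed each other over the 9 libraries. As a description, with libraries that come from only 3 lines, Pearson's r of log2(TPM + 1) was negative between HGF and each other tested member, at -0.92 with GAS6, -0.85 with AXL, -0.84 with TYRO3, -0.70 with MET and -0.06 with PROS1. It was 0.84 between GAS6 and MET, 0.81 between AXL and TYRO3, 0.75 between TYRO3 and GAS6 and 0.71 between AXL and GAS6. Between AXL and MET it was 0.39, and between AXL and PROS1 -0.45. Among 12181 tested protein-coding genes, those most like AXL were RANGAP1, CDC42EP1 and MBOAT7 (r between 0.995 and 0.996), and those most like HGF were PDE4B, SERPINB7 and PINLYP (0.995 to 0.997), which were high in GSCs alone. The genes most like MET were SCN2A, MDM2 and SNRPD1 (0.989 to 0.997), and those most like PROS1 were GALNT7, FAM81A and RABEP1 (0.988 to 0.989). GAS6 was closest to SUPT6H, CALR and POLDIP2 (0.986 to 0.990), and TYRO3 to VCP, CENPB and HEY2 (0.948 to 0.994). With 9 points in 3 clusters, the number of genes with an r over 0.95 was 407 for AXL, 277 for HGF, 163 for PROS1, 92 for GAS6, 45 for MET and 2 for TYRO3.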

How the data were processed

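RNA-seq was measured in 9 libraries of 3 cell lines, 3 libraries each. The authors deposited 1 table of log2(TPM + 1) per gene and library. Per the labels, RNA was depleted of ribosomal RNA, made into strand-keeping libraries and sequenced as paired ends (the paper's methods describe oligo(dT) selection instead), and the submitters' processing notes name FastQC 0.11.9, Trimmomatic 0.39, HISAT2 2.2.1, featureCounts 2.0.5, R 4.2.0 and the build GRCh38; the annotation release and the strand setting are not given in the sources used here. Back-transformed columns summed to 1000000, so depth is unknown and no counting intervals were computed.

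A gene entered the test when its mean TPM was over 1. The model was fitted in limma 3.58.1 under R 4.3.3, with a trended prior variance and all 9 libraries in it, with Benjamini-Hochberg adjustment over 22909 genes in each comparison; the script was tested on simulated data. Ratios were compared by exact permutation tests (scipy 1.17.1). Gene positions came from GENCODE 29, in which 53498 of the table's names were found, and gene types and promoters from RefSeq. The members, lists and tests were chosen with earlier results of these data known. Named genes are all members and genes taken from up to 5 per list and comparison past a log2 fold change of 1 (otherwise up to 2 with the smallest adjusted p). Not all genes that this rule gives are described, and CRKL and ETS1, for example, were left out. For the kinases the rule was used in GSCs against U87 only. Also named are the kinases ranked beside AXL and MET, the nearest tested genes, the 3 genes most like each member, and overlapping or copied genes. Further list genes (ADAM10, ADAM17, SRC, SP1, SP3, JUN, FOSL1, YAP1, TEAD1, CBL, LGALS3, TUB and the untested genes) were named after their values were seen, most of them for their known roles. Alternatives changed the pseudocount, the filter, the scaling, the model and the libraries.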

Additional observations from a re-analysis of the deposited data

Results flagged for a closer look

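No member of the receptors and ligands moved in opposite directions from U87 in GSCs and Diff cells with both changes past the test. Of the other listed genes, 6 did, and for each the difference of Diff cells from GSCs itself passed (limma, sharing the U87 libraries). Against U87, 48.6% of all tested genes passed in GSCs and 39.4% in Diff cells. How many of them went opposite ways was not counted, so the 6 genes are a description only. MITF had a log2 fold change of -1.76 in GSCs and 0.46 in Diff cells against U87, a difference of 2.21. ROS1, a receptor tyrosine kinase, had -2.10 and 1.13, a difference of 3.23. GAS6-AS1 had -0.65 and 0.73, a difference of 1.38. The opposite held for EGFR, with 0.23 and -0.21 (a difference of -0.44), for PDGFRA, with 0.47 and -1.67 (-2.14), and for ALK, with 0.68 and -0.54 (-1.22). No group of 3 libraries was searched for outlying libraries.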

How the results depend on the processing

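The direction and the call of AXL, PROS1, HGF in both comparisons with GSCs, and GAS6 in both comparisons with GSCs, and MET in Diff cells against GSCs held under all alternatives that could fit them (GAS6 is not tested with the filter at a mean TPM over 5). TYRO3 in Diff cells against U87 lay near 0 and changed sign with median-ratio scaling (0.0141), with TPM rescaled after RN7SL1 and mitochondrial genes were removed (0.0087) and on leaving out 1 library (-0.101 to 0.0496), and HGF in the same comparison ran from -0.112 to 0.0078 on leaving out 1 library; neither passed. MET in Diff cells against U87 passed with quantile normalization (adjusted p = 0.036), median-ratio scaling (0.017), rescaled TPM (0.044) and only the 2 cell lines compared (0.0083), and MET in GSCs against U87 with median-ratio scaling (0.030). TYRO3 in Diff cells against GSCs passed with the filter at 5 (0.046) and the same 3 scalings (0.027 to 0.041), and without Diff cells replicate 1 (0.036) or GSCs replicate 2 (0.044). Past a log2 fold change of 1, a pseudocount of 0.1 gave 2 members in GSCs against U87, adding GAS6 at -1.28, and Diff cells against GSCs had 1 with the filter at 5 and 1 to 2 on leaving out 1 library (1 without GSCs replicate 1). The other counts stayed within 1.5 times. The cause was not tested.

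No pairing by replicate number was seen: deviations of same-numbered libraries correlated between -0.04 and 0.05, and those of differently numbered ones between -0.06 and 0.05. Whether same-numbered libraries were handled together was not tested. With the replicate block, TYRO3 in GSCs against U87 lost its call (adjusted p = 0.058), and the counts of members called were 2, 4 and 5 in Diff cells against U87, GSCs against U87 and Diff cells against GSCs. The MET to AXL log2 ratio of Diff cells minus GSCs changed sign with group medians (0.11) and ran from -0.10 to 0.17 on leaving out 1 library. Quantile normalization moved the split of all calls in Diff cells against GSCs from 3447 higher of 7982 to 4391 of 8105.

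Neighbour medians moved with the window, the cause being other genes in it. With 5 genes on either side they were 0.072, 0.17 and -0.063 for AXL (Diff cells against U87, GSCs against U87, Diff cells against GSCs), 0.30 and 0.19 for MERTK (the last 2 comparisons), -0.11 for TYRO3 (GSCs against U87), -0.33 and 0.18 for GAS6 (the last 2), 0.026, 0.18 and -0.16 for PROS1, -0.051, 0.22 and -0.026 for MET, and 0.66 (Diff cells against U87) and -0.19 (Diff cells against GSCs) for HGF. With 25 genes they were -0.13 for AXL and 0.25 for MERTK (both Diff cells against GSCs), -0.17 and 0.10 for GAS6 (against U87), 0.44 and -0.031 for MET (the last 2), and 0.57 and -0.24 for HGF (Diff cells against U87 and against GSCs).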
